A study of Homo sapiens with 12 samples.

Results

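MALAT1, NEAT1, KCNQ1OT1, H19, MEG3, NORAD, TUG1 and OIP5-AS1 are 8 named long noncoding RNA genes, taken here by symbol from the 58735 genes in the count tables. They were followed across 12 RNA sequencing libraries of HEK293T, an easily transfected line derived from human embryonic kidney that expresses SV40 large T antigen. By its title, the study concerned control of splicing by microRNAs that lie in introns. Cells received 500 ng of a miR-211 plasmid or 500 ng of a control plasmid (labelled Control), or they received an oligo. The oligo was 1 nM of a U1 siRNA (labelled U1 siRNA WT) or a control oligo (labelled Scram WT). No dose is listed here for the control oligo, and each group had 3 libraries. Total RNA was taken 24 h after transfection, and all groups share the parental line with no other labelled genetic change. The labels state a U1 inhibition of 30%, and a transfection efficiency of at least 50% by GFP fluorescence, so a culture can hold cells without the plasmid. For the selection of RNA before sequencing, no method is given in the sources used here.

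Long noncoding RNAs are transcripts without a known protein product, and many of them act where they are made, in the nucleus. MALAT1 lies in nuclear speckles, which store splicing factors, and NEAT1 is the scaffold of paraspeckles, nuclear bodies built on that RNA. KCNQ1OT1, H19 and MEG3 are imprinted, which means that they are normally read from the copy inherited from a single parent. KCNQ1OT1 silences neighbouring genes in cis, H19 shares enhancers with IGF2, and MEG3 belongs to the DLK1 domain. NORAD binds the Pumilio proteins, repressors of mRNA, in the cytoplasm. TUG1 has been tied to Polycomb complexes, and OIP5-AS1, known as cyrano in other vertebrates, binds the microRNA miR-7. U1 small nuclear RNA pairs with 5 prime splice sites, guards transcripts against early polyadenylation and is known to hold noncoding RNAs on chromatin. The libraries measured RNA of whole cells, so where an RNA was located and which parental copy it came from were not measured.

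The sequences through which the 2 treatments could meet these RNAs were looked up first. The mature miR-211-5p sequence (RefSeq, GRCh38.p14, chr15:31065095-31065116, minus strand) is shown with its seed, bases 2 to 8, in capitals, followed by the 8mer match in NEAT1, the 8mer match in NORAD and the single 7mer match in MALAT1, each with the match in capitals. The windows are from GENCODE 29 transcripts on GRCh38: chr11:65426009-65426038 (plus strand) for NEAT1, chr20:36047444-36047473 (minus strand) for NORAD and chr11:65500856-65500884 (plus strand) for MALAT1.
hsa-miR-211-5p: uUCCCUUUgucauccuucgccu
NEAT1: acaagacctaaAAAGGGAAggggatgggga
NORAD: gtagaggtgggAAAGGGAAgggttctaggc
MALAT1: tactgaggtgtAAAGGGAtttatatgggg

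The 7mer searched was AAAGGGA and the 8mer was AAAGGGAA, so every 8mer is also a 7mer, and the search was on the transcript strand of the longest annotated transcript of each gene. KCNQ1OT1, an unspliced transcript of 91667 bases, held 19 of the 7mers, of which 9 were 8mers. MEG3 held 3 and NEAT1 held 3, of which 2 and 1 were 8mers. NORAD held 1, an 8mer, and MALAT1 and OIP5-AS1 held 1 each. TUG1 and H19 held 0 in their longest transcripts. Such matches are common at these lengths: 62.0% of 1691 other genes with a longest transcript of 0.8 to 1.25 times the length of that of MALAT1 held the 7mer, and 20.3% of 4633 genes near the length of NORAD held the 8mer. A match is a run of letters and not a measured site.

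The 9 bases that pair with the 5 prime end of U1, CAGGTAAGT, were found in 0 of the 8 longest transcripts and in 0 of the 117 annotated transcripts of the 8 genes. That run is rare in mature transcripts, at 1.38% of the genes near the length of NORAD and 3.17% of the 63 genes near the length of NEAT1. Introns and imperfect matches were not searched, so whether U1 pairs with these RNAs before splicing was not tested. The 27 bases of the U1 siRNA printed in the labels, and their reverse complement, also matched 0 of the 117 transcripts.

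NORAD is known for repeated Pumilio elements, and its annotated transcript of 5339 bases held 15 matches to TGTANATA, where N is any base. Among 4633 other genes of like length, 41.9% held at least 1 such match and 0.0432% held as many or more. NEAT1 held 6, KCNQ1OT1 9, TUG1 2, OIP5-AS1 1, MEG3 1, and MALAT1 and H19 0. Of the NORAD matches, 3 are shown with the element in capitals, since they are the first along the RNA, at chr20:36050182-36050211, chr20:36049803-36049832 and chr20:36049702-36049731 (minus strand, GRCh38).
match 1: tggaaggcctgTGTATATAatatgaaaaag
match 2: cctcactactgTGTATATAgttgacaatgc
match 3: aaatcacatttTGTAAATAcctttttgtta

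**Figure D1:**
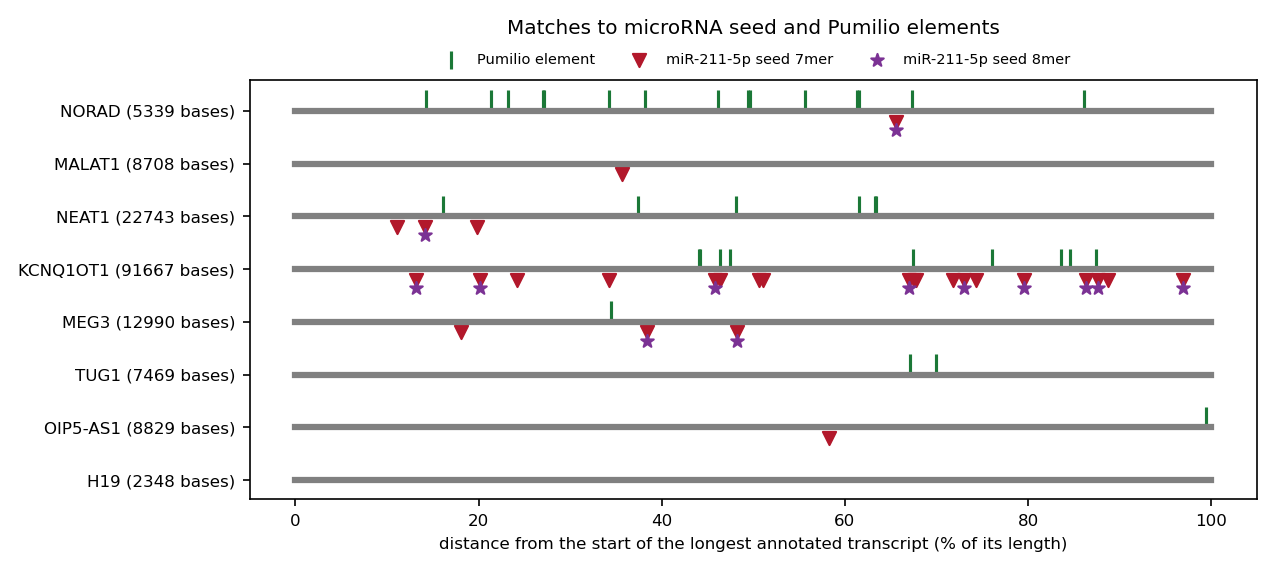
Matches along the longest annotated transcript of each gene, with the horizontal axis giving the distance from the transcript start as a percent of its length. Green bars are Pumilio elements, red triangles miR-211-5p seed 7mers and purple stars 8mers. The 15 Pumilio elements of NORAD are spread over most of its length, and the 3 seed matches of NEAT1 all lie nearer to its start than to its end.

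Counts over all genes totalled 6070116 to 8459646 per miR-211 library, 6226067 to 7484566 per control plasmid library, 4515728 to 6343000 per U1 siRNA library and 5903205 to 9290686 per Scram library. U1 siRNA library 2 stood apart: pairs outside annotated exons made up 44.5% of those mapped uniquely, against 14.5% to 25.5% in the other 11. Markers used for HEK293 cells were present for 6 of 8 genes at a mean of at least 1 CPM (counts per 1000000 counts over all genes), with the neurofilament gene NEFL at 73.1 to 107.7 CPM and VIM at 45.6 to 61.4 CPM, while INA and PAX2 had medians of 0.152 and 0.195 CPM. Blood markers summed to at most 3.10 CPM in any library, fibroblast markers to at most 12.8 CPM and melanocyte markers to at most 6.20 CPM, each highest in a library of the U1 siRNA group. The labels do not tell whether the libraries of a group are separate cultures. A p-value from edgeR here therefore rests on the spread among the 3 libraries of a group, moderated over genes. That spread may be technical.

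The 8 RNAs covered a very wide range of levels, and their order per kilobase of merged exon was the same almost everywhere. On the scale of CPM per kilobase of merged exon, MALAT1 averaged 202 ± 27.4 (SD, n = 12), NORAD 15.1 ± 3.63, OIP5-AS1 5.12 ± 0.408, TUG1 3.68 ± 0.370, NEAT1 1.62 ± 0.473, KCNQ1OT1 0.933 ± 0.0746 and MEG3 0.0214 ± 0.0268. Each gene down to KCNQ1OT1 was above the next in 12 of 12 libraries, and the ranges over libraries overlapped for 1 pair of these neighbours, OIP5-AS1 and TUG1. MEG3 was above H19, which had no count, in 10 of 12. By CPM, MALAT1 ranked first of 16054 genes annotated as long noncoding and held 11.7% of all their counts. KCNQ1OT1 ranked 16 by CPM and 1343 by CPM per kilobase, since its annotated exon is 91667 bases long. In CPM, not divided by length, the order was not fixed. NEAT1 was above TUG1 in miR-211 library 1 (50.2 against 43.3 CPM) and below it in miR-211 library 2 (31.1 against 38.4 CPM).

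Over the 8 genes, 0 were called in either comparison of the series. With miR-211, edgeR called 1 of 12685 genes, 0.00788%, which was MIR211 itself, and DESeq2 called 1. With U1 siRNA edgeR called 0 of 12413 genes, 0%, and DESeq2 called 0. At an unadjusted p under 0.05, 0 of the 6 tested members and 3.29% of all genes passed with miR-211, and 1 of 6, NEAT1, and 1.58% of all genes passed with U1 siRNA. Between the control groups it was 1 of 6, NORAD, and 7.79% of all genes, with 0% called by edgeR and 38 genes by DESeq2. Groups that did not overlap were found for 0 of the 6 with miR-211 and 0 of the 6 with U1 siRNA, beside 9.7% and 6.45% of all genes.

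Same-numbered plasmid libraries deviated together over all tested genes. Over genes with a mean of at least 10 CPM, r was only 0.074 for the libraries numbered 2. The use of a block therefore depends on the gene set. With replicate numbers as a block, MALAT1 and NEAT1 passed the unadjusted threshold with miR-211, 2 of 6, where 7.43% of all genes did. MALAT1 was lower in 3 of 3 pairs (log2 fold change -0.18, edgeR with block, unadjusted p 0.0136, adjusted p 0.630). Its log2 ratios in CPM were -0.14, -0.05 and -0.44. NEAT1 was higher in 3 of 3 pairs (0.22, edgeR with block, unadjusted p 0.0355, adjusted p 0.645). The NEAT1 log2 ratios in CPM were 0.24, 0.01 and 0.31. How many of all genes kept the same direction in 3 of 3 pairs was not counted.

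MALAT1 (ENSG00000251562, chromosome 11, 65497688 to 65506516, plus strand, GRCh38, a single merged exon of 8829 bases) lies 52147 bases downstream of NEAT1. Its 3 prime end is formed by RNase P and carries no poly(A) tail, so its level can depend on how RNA was selected. The miR-211 libraries had 2048, 1672 and 1344 CPM, against 2256, 1727 and 1830 CPM in the control plasmid libraries. The U1 siRNA libraries had 1768, 1736 and 1620 CPM, against 2018, 1864 and 1558 CPM in the Scram libraries. Both pairs of groups overlapped, and the spread of MALAT1 within the miR-211 group was wider than the whole range of the U1 siRNA and Scram libraries together.

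MALAT1 did not pass the test in either comparison of the series. With miR-211 the log2 fold change was -0.17 (SE 0.12, 95% interval -0.43 to 0.09, edgeR quasi-likelihood test, adjusted p 0.996), with -0.33 when miR-211 library 1 was left out and -0.027 when miR-211 library 3 was. With U1 siRNA it was -0.10 (SE 0.10, 95% interval -0.31 to 0.12, edgeR, adjusted p 0.9999). In bulk samples, fewer cells that hold an RNA and less of it per cell cannot be told apart, which applies to every level given here.

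NEAT1 (ENSG00000245532, chromosome 11, 65422774 to 65445540, plus strand, 22767 bases of exon) is made as a short and a long transcript from the same start, which a gene count adds together. Its levels came to 50.2, 31.1 and 33.8 CPM in the miR-211 libraries, against 42.6, 30.8 and 27.1 CPM in the control plasmid libraries. With U1 siRNA the libraries gave 37.5, 63.6 and 33.8 CPM, against 25.9, 35.9 and 30.2 CPM in the Scram libraries. U1 siRNA library 2 was the highest of all 12. The groups overlapped in both comparisons, and with U1 siRNA the overlap was between library 3 of that group and library 2 of Scram.

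Of the 6 RNAs tested with U1 siRNA, NEAT1 had the largest difference, a log2 fold change of 0.53 (SE 0.20, 95% interval 0.10 to 0.96, a 1.44-fold higher level). It did not pass the test across 12413 genes (edgeR quasi-likelihood test, unadjusted p 0.0202, adjusted p 0.9999), where 0 genes passed. The same-numbered libraries, which were not taken as paired, differed by log2 ratios of 0.53, 0.82 and 0.16 in CPM. Without U1 siRNA library 2 the log2 fold change was 0.24, and with the share of pairs outside exons as a covariate it was 0.35. With miR-211 it was 0.22 (SE 0.18, 95% interval -0.16 to 0.59, edgeR, adjusted p 0.996), and -0.0061 without miR-211 library 1.

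The level of NEAT1 was set beside the share of pairs outside exons. Over the 12 libraries, Pearson's r between log2(CPM + 0.1) and that share was 0.78 (permutation p 0.0109, adjusted over 7 genes 0.0380), and Spearman's rho was 0.50 (permutation p 0.105, adjusted 0.368). Without the 2 libraries farthest from the median share, U1 siRNA 2 and Control 2, r was 0.47 (permutation p 0.172), and without U1 siRNA library 2 alone it was 0.48, where it no longer passed (adjusted p 0.465). Within the 6 plasmid libraries r was 0.80 (exact permutation p 0.0583), and within the 6 oligo libraries it was 0.85 (exact permutation p 0.208). The part of this share in the NEAT1 difference was not tested beyond the covariate fit above.

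**Figure D2:**
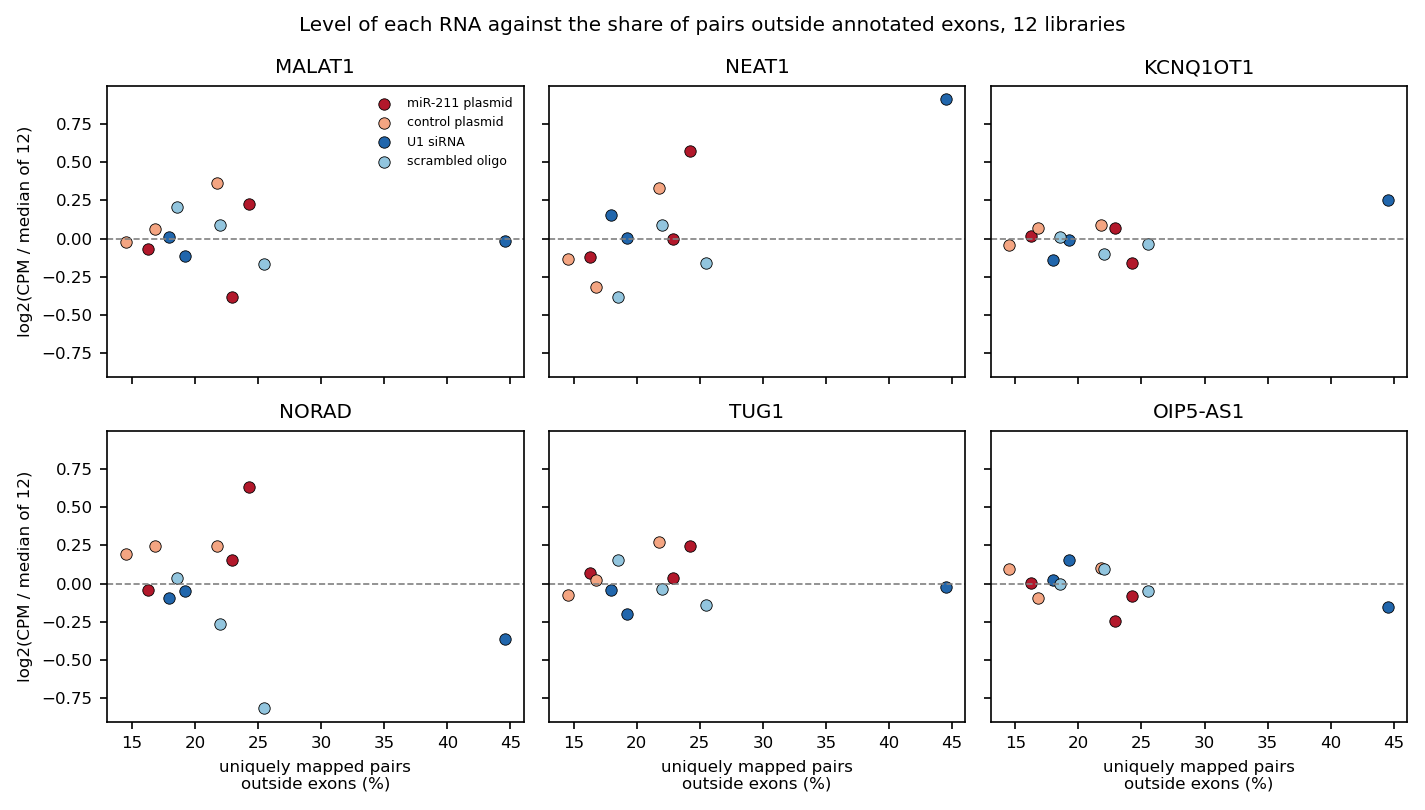
Level of each of the 6 tested RNAs, as log2 of CPM over its median of 12 libraries, against the percent of uniquely mapped pairs outside annotated exons. Points are libraries, coloured by group. NEAT1 and KCNQ1OT1 are highest in U1 siRNA library 2, the point at 44.5%, while MALAT1 and TUG1 there are near their medians.

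The proteins and factors of the nuclear bodies gave no calls. Of 18 paraspeckle protein genes, 0 passed in either direction with U1 siRNA, and their median log2 fold change was -0.02, beside 0.02 over all genes tested. The highest log2 fold changes were those of EWSR1 (0.17) and RBM7 (0.11), and the lowest DAZAP1 (-0.18) and SFPQ (-0.14), the last a core paraspeckle protein. NEAT1 was highest in U1 siRNA library 2, as were 1 of these 18 genes, RBM7, and 32.3% of the 14214 genes with a mean of at least 1 CPM. Of 14 nuclear speckle genes, 0 passed and 2 of 14 had a value above 0 with U1 siRNA (median -0.05), where 54.7% of all genes did. SRRM2, a scaffold of speckles, was the highest of these (0.05), and the splicing factor SRSF1 the lowest (-0.15). Of the 14 speckle genes, 0 were highest in U1 siRNA library 2, beside 32.3% of the genes with a mean of at least 1 CPM. The part of that library in the 2 of 14 was not tested.

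With miR-211 the same lists also held 0 calls. The median was 0.03 for the paraspeckle genes, with 11 of 18 above 0, and 0.0045 for the speckle genes, with 7 of 14 above 0, beside 51.8% of all 12685 genes. SRRM2 had 65.7 ± 7.29 CPM in miR-211 cells and 54.7 ± 3.94 CPM in control plasmid cells (SD, n = 3 each), and its log2 fold change, 0.29, did not pass the test (edgeR, adjusted p 0.996). Of 15 genes for nuclear RNA 3 prime processing and decay, which include ELAC2 (RNase Z) and METTL16, a binder of the MALAT1 triple helix, 0 passed with miR-211 (median -0.07) and 0 with U1 siRNA (median 0.00074). EXOSC3, a subunit of the RNA exosome, was the lowest of them with miR-211 (-0.30).

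KCNQ1OT1 (ENSG00000269821, chromosome 11, 2608328 to 2699994, minus strand) lies inside KCNQ1 on the opposite strand. It was among the steadier RNAs: its highest library was 1.33 times its lowest in CPM, beside 1.32 times for OIP5-AS1 and 2.73 times for NORAD. In the miR-211 group the levels were 76.3, 86.2 and 89.5 CPM, against 90.6, 82.7 and 89.3 CPM in the control plasmid libraries. In the U1 siRNA group the levels were 77.3, 101.4 and 84.7 CPM, against 85.6, 79.4 and 83.0 CPM in the Scram libraries. All 4 groups overlapped, and U1 siRNA library 2 was the only library above 90.6 CPM.

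The log2 fold change of KCNQ1OT1 was -0.03 with miR-211 (SE 0.09, 95% interval -0.22 to 0.16, edgeR, adjusted p 0.997) and 0.07 with U1 siRNA (SE 0.10, 95% interval -0.14 to 0.28, edgeR, adjusted p 0.9999). Both signs turned when a single library was left out: 0.04 without miR-211 library 1 and -0.016 without U1 siRNA library 2. Of the 8 transcripts it held the most seed 7mers, 19 over 91667 bases. That was 0.207 per kilobase, below the 0.231 of MEG3. Only 1 other gene had a longest transcript of like length, and it held 14. Counted without strand, its pairs cannot be told apart from unspliced KCNQ1, whose own exons had 20 counts in all 12 libraries.

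Of the genes in the KCNQ1OT1 domain, CDKN1C and PHLDA2 were low. CDKN1C, a cell cycle inhibitor that KCNQ1OT1 silences on the paternal copy, had 0.954 to 2.37 CPM over the 12 libraries, and PHLDA2 0.129 to 0.678 CPM. NAP1L4, at the edge of the domain, had 131.6 to 169.7 CPM, with a log2 fold change of -0.13 with miR-211 (edgeR, adjusted p 0.996).

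H19 (ENSG00000130600, chromosome 11, 1995176 to 2001470, minus strand, 2897 bases of merged exon) had 0 counts in all 12 libraries. With 0 of 82052206 counts, a level of up to 0.0366 CPM over the series is allowed by 3 counts, and this covers counting error only. IGF2, its imprinted neighbour, had 2 counts in all 12 libraries together. No group could therefore be compared for either gene.

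MEG3 (ENSG00000214548, chromosome 14, 100779410 to 100861031, plus strand, 23224 bases of merged exon) was near 0, with 38 counts in the whole series. The miR-211 libraries had 2, 1 and 6 counts, against 0, 0 and 2 counts in the control plasmid libraries. The U1 siRNA libraries had 1, 10 and 1 counts, against 2, 4 and 9 counts in the Scram libraries. U1 siRNA library 2, with 10 counts or 2.21 CPM, was the highest, and the groups overlapped in both comparisons.

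The filter on low counts left MEG3 and H19 out of all 3 fits. The ratio of summed MEG3 counts per total was 4.18 for miR-211 over control plasmid (exact 95% interval 0.864 to 39.7) and 1.09 for U1 siRNA over Scram (0.464 to 2.49), and these intervals cover counting error only. The ratio with miR-211 was 2.13 without miR-211 library 3 (0.244 to 25.5) and 5.99 without miR-211 library 2 (1.19 to 57.9). Leaving out control plasmid library 3 left that group no count, with a lower bound of 1.17. The interval was 0.850 to 44.1 without miR-211 library 1. It was 0.604 to 27.8 without control plasmid library 1 and 0.574 to 26.4 without control plasmid library 2. The ratio with U1 siRNA was 0.249 without U1 siRNA library 2 (0.0276 to 1.07) and 0.845 to 1.61 without each other library. Leaving out libraries for these ratios was a choice made after seeing the data. Other genes of the MEG3 domain were also low, with 9 counts for DLK1, 61 for MEG8, more than for MEG3, 16 for RTL1 and 0 for MEG9 in the 12 libraries. Of the 3 imprinted members, H19 and MEG3 were thus at or near 0 in these cells.

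Other imprinted genes were not all low. Of 21 on the list, 11 passed the filter in the miR-211 fit and 10 in the U1 siRNA fit, and 0 passed the test in either. GNAS, a G protein subunit gene, had 131.8 to 151.3 CPM and BLCAP 66.4 to 92.2 CPM, while SNURF had 0 counts and NDN 4. By log2 fold change, the highest with miR-211 were DIRAS3 (0.41) and BLCAP (0.10) and the lowest UBE3A (-0.22) and MKRN3 (-0.11). With U1 siRNA the highest were L3MBTL1 (0.36) and PLAGL1 (0.19) and the lowest GNAS (-0.07) and IGF2R (-0.06). Of 12 measured imprint and Polycomb chromatin factors, 0 passed in either comparison, with medians of 0.0055 with miR-211 and -0.0031 with U1 siRNA.

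**Figure D3:**
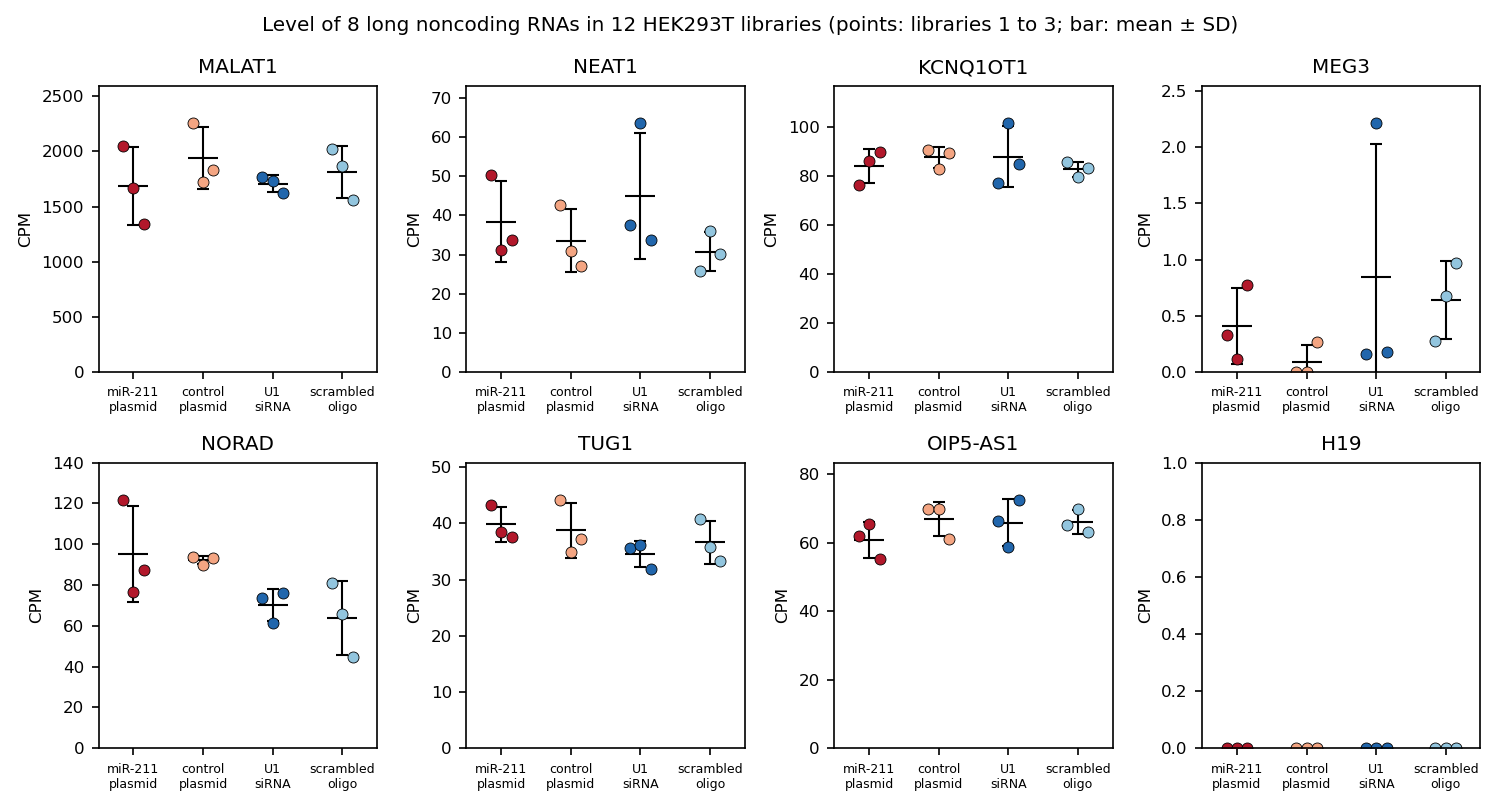
CPM of each RNA in the 12 libraries, with points for libraries 1 to 3 of each group from left to right and a bar for the mean ± SD (n = 3); each panel starts at 0 and has its own scale. H19 is at 0 throughout, MEG3 is at most 2.21 CPM, and the control plasmid libraries of NORAD, at 89.9 to 93.5 CPM, sit above the 3 Scram libraries.

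NORAD (ENSG00000260032, chromosome 20, 36045622 to 36050960, minus strand, 5339 bases, with no exon shared with another annotated gene) varied most of the 6 tested members by the ratio of its highest to its lowest library, at 44.7 to 121.7 CPM. With the miR-211 plasmid the libraries gave 121.7, 76.6 and 87.4 CPM, against 93.5, 89.9 and 93.4 CPM in the control plasmid libraries. With U1 siRNA the libraries gave 73.6, 61.3 and 76.1 CPM, against 80.8, 65.6 and 44.7 CPM in the Scram libraries. All libraries given oligos lay below the 3 control plasmid libraries, and miR-211 library 2, at 76.6 CPM, lay below Scram library 1.

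NORAD did not pass either comparison of the series. With miR-211 its log2 fold change was 0.07 (SE 0.13, 95% interval -0.20 to 0.34, edgeR, adjusted p 0.996), and -0.14 without miR-211 library 1. With U1 siRNA it was 0.15 (SE 0.19, 95% interval -0.26 to 0.56, edgeR, adjusted p 0.9999), and -0.08 without Scram library 3.

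The control groups were also set side by side, a comparison that the series does not state, in which plasmid or oligo and any batch cannot be told apart. NORAD averaged 92.3 ± 2.02 CPM in control plasmid cells and 63.7 ± 18.1 CPM in Scram cells (SD, n = 3 each), and the groups did not overlap. Among 12650 genes, 13.9% had groups that did not overlap, 6.5% with the control plasmid higher. The log2 fold change was 0.54 (SE 0.15, 95% interval 0.22 to 0.87, 1.46-fold), which did not pass the test (edgeR quasi-likelihood test, unadjusted p 0.00263, adjusted p 0.438). It was 0.32 without Scram library 3, the lowest of the 12, and 0.32 with the share of pairs outside exons as a covariate, a share of 14.5% to 21.8% in the control plasmid libraries and 18.6% to 25.5% in the Scram libraries. Under a fit with no filter on low counts NORAD did pass (edgeR, adjusted p 1.78e-05), with adjusted p from 1.78e-05 to 0.873 over the alternatives.

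The other 5 tested RNAs differed little between the control groups, with log2 fold changes of 0.10 for MALAT1, 0.13 for NEAT1, 0.08 for KCNQ1OT1, 0.08 for TUG1 and 0.03 for OIP5-AS1 (edgeR, adjusted p 0.844 to 0.973). Both groups also serve as controls above, so the comparisons share libraries. MEG3 had 2 counts in the control plasmid libraries and 15 in the Scram libraries, with 2 counts each in the nearest libraries, control plasmid 3 and Scram 1.

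Of 8 genes for NORAD partners, 0 passed in any of the 3 comparisons. ALYREF, an mRNA export factor, had 9.97 ± 0.910 CPM in U1 siRNA cells and 13.7 ± 1.55 CPM in Scram cells (log2 fold change -0.46, edgeR, adjusted p 0.9999). In control plasmid cells ALYREF had 10.7 ± 1.45 CPM, a log2 fold change of -0.36 against Scram (edgeR, adjusted p 0.607). The list medians were 0.03 with miR-211, -0.04 with U1 siRNA and 0.01 between the control groups.

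TUG1 (ENSG00000253352, chromosome 22, 30969245 to 30979395, plus strand) shares 14.4% of its 10151 exon bases with other annotated genes, where a pair is not assigned. The miR-211 libraries had 43.3, 38.4 and 37.6 CPM, against 44.2, 34.8 and 37.1 CPM in the control plasmid libraries. In the U1 siRNA group the levels were 35.6, 36.1 and 31.9 CPM, against 40.7, 35.7 and 33.3 CPM in the Scram libraries. Groups overlapped in both, and the log2 fold change was 0.07 with miR-211 (95% interval -0.16 to 0.30, edgeR, adjusted p 0.996) and -0.09 with U1 siRNA (95% interval -0.35 to 0.16, edgeR, adjusted p 0.9999). The miR-211 value was 0.0095 without control plasmid library 2 and 0.15 without control plasmid library 1.

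OIP5-AS1 (ENSG00000247556, chromosome 15, 41283990 to 41309737, plus strand, 12673 bases of merged exon) starts beside OIP5 on the opposite strand and shares 6.29% of its exon bases with other genes. Its levels came to 61.8, 65.5 and 55.1 CPM in the miR-211 libraries, against 69.9, 69.6 and 61.1 CPM in the control plasmid libraries. The U1 siRNA libraries had 66.2, 58.7 and 72.5 CPM, against 65.0, 69.8 and 63.0 CPM in the Scram libraries. Each miR-211 library lay below its same-numbered control, a pattern whose share over all genes was not counted. Groups overlapped in both comparisons. The log2 fold change was -0.11 with miR-211 (95% interval -0.32 to 0.10, edgeR, adjusted p 0.996) and -0.0029 with U1 siRNA (95% interval -0.23 to 0.23, edgeR, adjusted p 0.9999). With miR-211 it was -0.18 without miR-211 library 2 and -0.036 without miR-211 library 3.

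**Figure D4:**
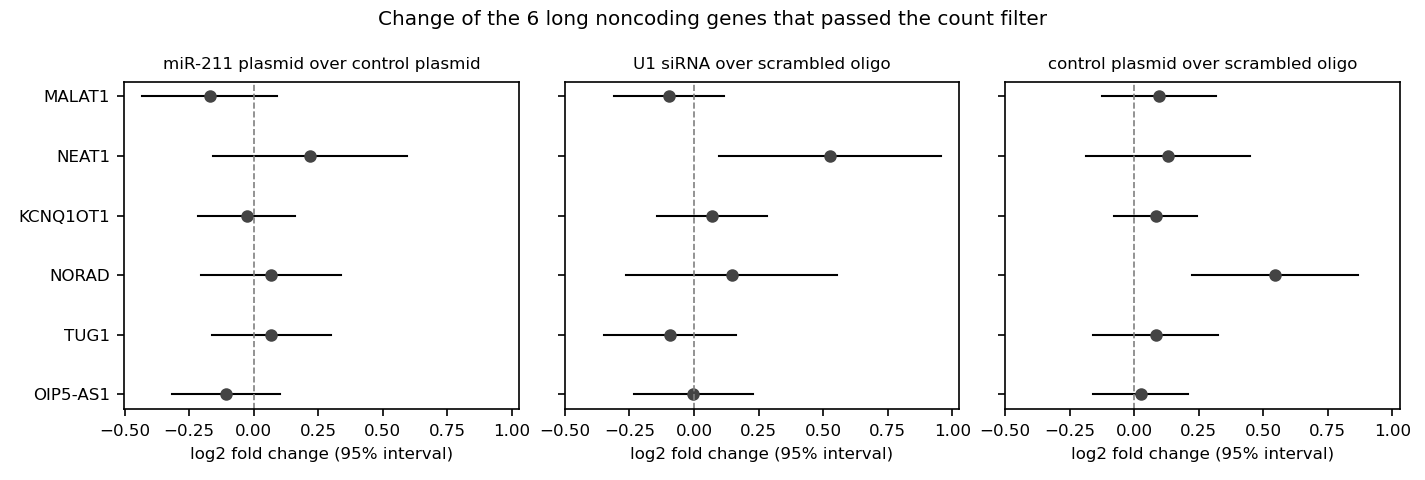
Log2 fold change (dot) with its 95% interval (line) from the edgeR fits for the 6 RNAs that passed the count filter, in 3 comparisons. The intervals of NEAT1 with U1 siRNA (0.10 to 0.96) and of NORAD between the control groups (0.22 to 0.87) lie above 0 before adjustment over all genes, and the others span 0.

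Of 18 other long noncoding RNAs on a list, 15 were tested with miR-211 and 14 with U1 siRNA, and 0 passed in either. By log2 fold change, CYTOR (0.30) and MIR22HG (0.27) were the highest with miR-211, and EPB41L4A-AS1 (-0.21) and LINC01578 (-0.14) the lowest. LINC01578 (0.25) and PCBP1-AS1 (0.13) were the highest with U1 siRNA, and MIR22HG (-0.38) and EPB41L4A-AS1 (-0.18) the lowest. Of 23 neighbours of the 8 genes, 11 and 12 were tested with 0 calls, and medians were 0.11 with miR-211 and 0.10 with U1 siRNA. SLC25A45 near NEAT1 was the highest of these with U1 siRNA (0.77, edgeR, adjusted p 0.9999) and was itself highest in U1 siRNA library 2.

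U1 siRNA library 2 was the highest of 12 for NEAT1, KCNQ1OT1 and MEG3, and ranked 11 for NORAD and OIP5-AS1 and 7 for MALAT1 and TUG1. Genes annotated as long noncoding held 2.16% of its counts, against 1.33% to 1.59% in the other 11 libraries. Of 1498 long noncoding genes with a mean of at least 1 CPM, 43.3% were highest in that library, as were 31.0% of 11888 protein-coding genes. Its NEAT1 level was 1.88 times the median of the other libraries, and its NORAD level 0.759 times.

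The genes whose pattern over the 12 libraries lay nearest to each member were found as those with the smallest root mean square difference of centred log2(CPM + 0.1), among 7428 genes with a mean of at least 10 CPM. For MALAT1 these were GCFC2 (0.081) and ZNF107 (0.088), where the median gene differed by 0.22. For NEAT1 they were ZNF880 (0.17) and TMCC1 (0.18), beside a median of 0.37. For NORAD they were the mitochondrial gene MT-ND1 (0.20) and MTATP6P1 (0.20), a pseudogene of a mitochondrial gene whose reads may be shared with its source, beside a median of 0.38. KCNQ1OT1 lay nearest to CTSV (0.066) and CLIP1 (0.067), TUG1 to AL161891.1 (0.044) and PSME4 (0.064), and OIP5-AS1 to ZNF512 (0.048) and MPHOSPH10 (0.051). A gene that did not vary at all would lie at 0.11 from KCNQ1OT1, 0.14 from TUG1 and 0.11 from OIP5-AS1. For MALAT1, NEAT1 and NORAD that distance would be 0.19, 0.36 and 0.35. Small distances for the steadier members thus partly follow from their small variation. These are descriptions over libraries that share their depth and composition.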

How the data were processed

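RNA was measured in 12 HEK293T libraries. The deposited values are raw counts of read pairs per gene, 126 nt per end, per the labels' protocols. The submitters' processing notes name STAR 2.7.2a, GRCh37 and hg19. All 58735 gene IDs are those of GENCODE 29, made on GRCh38, so the alignment build was not settled, and all coordinates are from GENCODE 29 or RefSeq on GRCh38. The unstranded column was used, since the strand columns had nearly equal totals. Their ratio was 0.990 in miR-211 library 3 and 1.08 to 1.10 in all other libraries. The 4 summary lines stayed out of library sizes and tests.

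CPM is counts per 1000000 counts over all genes. Each comparison was fitted on its own 6 libraries with edgeR 4.0.16 in R 4.3.3 (TMM, filterByExpr, quasi-likelihood test, Benjamini-Hochberg adjusted p under 0.05 over all genes tested), checked on simulated counts. Permutation p-values of correlations used 100000 resamples drawn with numpy 2.4.6, or all orderings with scipy 1.17.1 within 6 libraries. Alternatives were DESeq2 1.42.0, RLE scaling, no filter, each strand column, the share outside exons as a covariate, a replicate block and leaving out each library.

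The 8 members and the gene lists were chosen with earlier results of these data known. In each list the 2 highest and 2 lowest log2 fold changes were to be named. Some items that this rule or the sequence search picked are not reported here. Other genes were named after their values were seen. Same-numbered miR-211 and control plasmid libraries deviated together across genes (r 0.25, 0.31 and 0.24 over the 12685 tested genes), so they were taken as paired by these data, although the labels give the numbers no meaning. Over 7428 genes with a mean of at least 10 CPM, r was 0.37, 0.074 and 0.43, so the pairing depends on the gene set. No 2 replicates were alike within sampling noise (chi-square over genes, 2.15 to 7.25 per degree of freedom).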

Additional observations from a re-analysis of the deposited data

How the results depend on the processing

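Of the log2 fold changes of the 6 tested RNAs under the alternatives, 204 kept their direction and side of the threshold, 5 kept their direction with no adjusted p from DESeq2 (NEAT1, KCNQ1OT1, NORAD, TUG1 and OIP5-AS1 between the control groups), 23 turned direction and 2 newly passed, and no turned value passed the threshold. The 2 were NORAD between the control groups, with the replicate block (0.58, edgeR, adjusted p 0.0311) and with no filter (0.56, edgeR, adjusted p 1.78e-05). Same-numbered control plasmid and Scram libraries correlated by 0.04, 0.03 and 0.17, and U1 siRNA and Scram libraries by 0.14, 0.09 and -0.05 over the tested genes, and by 0.22, 0.038 and 0.33 and by 0.062, 0.36 and 0.18 over genes of at least 10 CPM, so those numbers were not taken to pair libraries. With the block NEAT1 with U1 siRNA was 0.50 (edgeR, unadjusted p 0.00128, adjusted p 0.9995), a fit without a basis in paired libraries. How many of all genes passed unadjusted in that fit is not given here. Beyond NORAD, the block changed no call among the 6 RNAs.

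The number of genes called between the control groups was 0 in the fit reported, 30 with the replicate block, 38 with DESeq2, 51 with no filter, 4 and 6 with strand columns 3 and 4, and 0 to 21 when a library was left out, 21 without Scram library 3. It was 2 with miR-211 with no filter or with either strand column, and 7 with U1 siRNA with no filter. The cause was not tested.

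With the share outside exons as a covariate, miR-211 values turned to -0.0089 for NEAT1, -0.080 for NORAD and -0.0094 for TUG1, and OIP5-AS1 with U1 siRNA to 0.048. With no filter KCNQ1OT1 with U1 siRNA was -0.012. OIP5-AS1 was 0.057 with U1 siRNA in strand column 4 and -0.059 between the control groups in strand column 3.

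Leaving out a library in turn, miR-211 ranges were -0.33 to -0.027 for MALAT1, 0.0095 to 0.15 for TUG1, -0.18 to -0.036 for OIP5-AS1, -0.0061 to 0.40 for NEAT1, -0.071 to 0.038 for KCNQ1OT1 and -0.14 to 0.19 for NORAD. With U1 siRNA they were -0.21 to 0.0058 for MALAT1, -0.016 to 0.15 for KCNQ1OT1, -0.17 to 0.012 for TUG1, -0.097 to 0.091 for OIP5-AS1 and -0.076 to 0.38 for NORAD. Between the control groups they were -0.014 to 0.20 for MALAT1, -0.059 to 0.27 for NEAT1, -0.0063 to 0.19 for TUG1 and -0.018 to 0.093 for OIP5-AS1.

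Pearson's r with the share outside exons passed for NEAT1 and MEG3 (0.76, on 38 counts) over 12 libraries. Spearman's rho passed for MEG3 (0.82, permutation test, adjusted p 0.0111) and not for NEAT1 (0.50, permutation test, adjusted p 0.368). Without U1 siRNA library 2, Pearson's r was 0.48 for NEAT1, 0.65 for MEG3, -0.17 for KCNQ1OT1 and 0.17 for TUG1. Without the 2 farthest libraries, a setting added after seeing earlier results, it was 0.47, 0.53, -0.24 and 0.062 for the same genes. Within the plasmid libraries it was 0.80 for NEAT1, 0.50 for MEG3, 0.15 for MALAT1, -0.18 for KCNQ1OT1, 0.61 for NORAD and 0.75 for TUG1, and within the oligo libraries 0.85 for NEAT1, 0.90 for MEG3, 0.89 for KCNQ1OT1 and -0.78 for OIP5-AS1, none past the threshold. MEG3 and H19 were below the count filter of the fits reported, so no fitted change is given for them.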
